A study of Mus musculus with 4 samples.

Results

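The protein phosphatase genes described here encode the catalytic and regulatory subunits of the serine/threonine phosphatases PP1, PP2A, PP2B (calcineurin), PP4, PP5 and PP6. A probe was counted as a member when its annotated gene symbol began with Ppp and a digit and when it was detected, at a detection p under 0.05, on at least 2 of the 4 arrays. This gave 61 of the 75 such genes, through 93 of their 150 probes, among 18237 detected probes in all. PP1 contributed 42 detected probes of 80, PP2A 24 of 34, PP2B 6 of 9 and the PP4, PP5 and PP6 genes 21 of 27. The choice did not use any difference between the groups of cells.

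The cells were neural stem and progenitor cells (NSPC), which self-renew and form neurons and glia, taken from the neocortex of C57BL/6 mice of a conditional transgenic line based on Cre/LoxP. They were kept in suspension as neurospheres in DMEM/F12 with B-27, EGF at 20 ng/ml and FGF2 at 20 ng/ml, and were harvested at day 5. Of the 4 samples, 2 were labelled as overexpressing Bmi1, a polycomb group protein that sustains self-renewal, and 2 as transgenic controls. The promoter that drives the transgene or the Cre, the alleles that the control cells carry and the age of the mice are not stated in the labels.

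These phosphatases remove phosphate from serine and threonine and so oppose the kinases of growth signalling and mitosis. Each has a small set of catalytic subunits, and its target is set by regulatory subunits. PP1 binds one of many targeting or inhibitory proteins, PP2A is a trimer of a catalytic, a scaffold and a B subunit, and calcineurin is switched on by calcium and calmodulin. In neural progenitors PP1 and PP2A act at the spindle and at mitotic exit, and calcineurin is known mainly for dephosphorylating NFAT.

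The direction of every difference below is unsettled, because the scanner table and the processed table, both deposited, give each other's group names to the same arrays. Each array headed as a Bmi1 sample in the scanner table matched a control column of the processed table at a Spearman correlation across probes of 1.00. Each array headed as a control matched a Bmi1 column, also at 1.00, and no other pairing was above 0.899. Arrays are called here by the scanner headers, and a difference is the mean of the arrays labelled Bmi1 minus the mean of the arrays labelled control, in normalized log2 units. With the names of the processed table each sign turns. The probe for Bmi1 itself read 6.46 and 6.11 on the arrays labelled control and 6.15 and 6.89 on those labelled Bmi1, so the groups overlapped. Its difference was 0.24 (SE 0.29, limma adjusted p = 0.680), or -0.13 without the second Bmi1 array, and it does not settle the labels.

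The arrays differed in ways that bear on every value. Each detected 16495 to 18242 of 45259 probes, with the fewest on the second Bmi1 array. The first control array had a signal of 398 for Xist, which is transcribed from the inactive X chromosome, against 0.3 to 8.4 on the other 3 arrays. It had -1.8 for the brighter probe of the Y-linked Eif2s3y, against 204.6 to 239.6. All 16 detected mitotic genes lay above 0 in the comparison, with a median of 1.06, and all 9 detected astrocyte markers lay below 0, with a median of -0.74. Of the 11 detected oligodendrocyte markers 8 lay below 0, with a median of -1.16. Neural stem and progenitor markers were detected for 11 of 13 genes, among them Nes, Sox2 and Notch1, but not for Pax6 or Prom1. In such bulk samples fewer cells of a type and less RNA per cell cannot be told apart.

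None of the 93 phosphatase probes passed an adjusted p of 0.05 in limma, with adjustment over all 18237 probes, where 0.0% passed and the smallest adjusted p was 0.142. At an unadjusted p under 0.05, 11 phosphatase probes were higher on the arrays labelled Bmi1 and 17 were lower. The shares over all probes were 10.7% higher and 10.1% lower, against 11.8% and 18.3% of the phosphatase probes. Both arrays of one group lay above both of the other, in either direction, for 53.6% of all probes. Of the phosphatase probes 20 did so on the higher side, which is 21.5% against 26.3% of all probes, and 33 on the lower side, which is 35.5% against 27.3%. A difference above 0 was found for 38 phosphatase probes, 40.9% against 49.0% of all. An exact permutation test of 2 arrays against 2 cannot go below p = 0.333, so none was made for single probes.

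The enzyme groups differed in where their differences lay. The median was -0.30 over the 42 PP1 probes, -0.05 over the 24 PP2A probes, -0.05 over the 6 PP2B probes and -0.02 over the 21 PP4, PP5 and PP6 probes, against -0.01 over all detected probes. The PP1 median was -0.16 without the first control array, which held the Xist signal, and -0.03 with undetected probes included. Among PP1 probes 19 lay lower without overlap, which is 45.2%, and 6 lay higher, which is 14.3%. The shares over all detected probes were 27.3% and 26.3%. PP2A had 8 lower (33.3%) and 7 higher (29.2%), and the PP4 to PP6 genes had 5 (23.8%) and 7 (33.3%). Calcineurin had 1 lower and 0 higher. Of these, the higher Ppp1r13l probe met the detection rule only through the arrays labelled Bmi1. Lower probes of Ppp4r4 and Ppp4r1l-ps met it only through the control arrays. The rule favoured the sides of these probes. Scaling each array to its median over probes detected on all 4 arrays, in place of equal quantiles, moved the median of all probes to 0.14. The PP1 median then read -0.11, which is -0.25 relative to all probes, while those of PP2A, PP2B and PP4 to PP6 stood above 0, at -0.09, -0.04 and 0.06 relative to all probes. Scaling to the median of all probes, detected or not, moved the median of the detected probes to -0.21. A difference smaller than these shifts therefore has no settled sign. The count of 11 higher and 17 lower of the 93 phosphatase probes became 14 and 14 under the first of these scalings. It became 3 and 26 under the second. The shares over all detected probes moved as well, from 10.7% higher and 10.1% lower to 16.1% and 7.05% under the first. Under the second they were 3.37% and 20.1%.

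**Figure D1:**
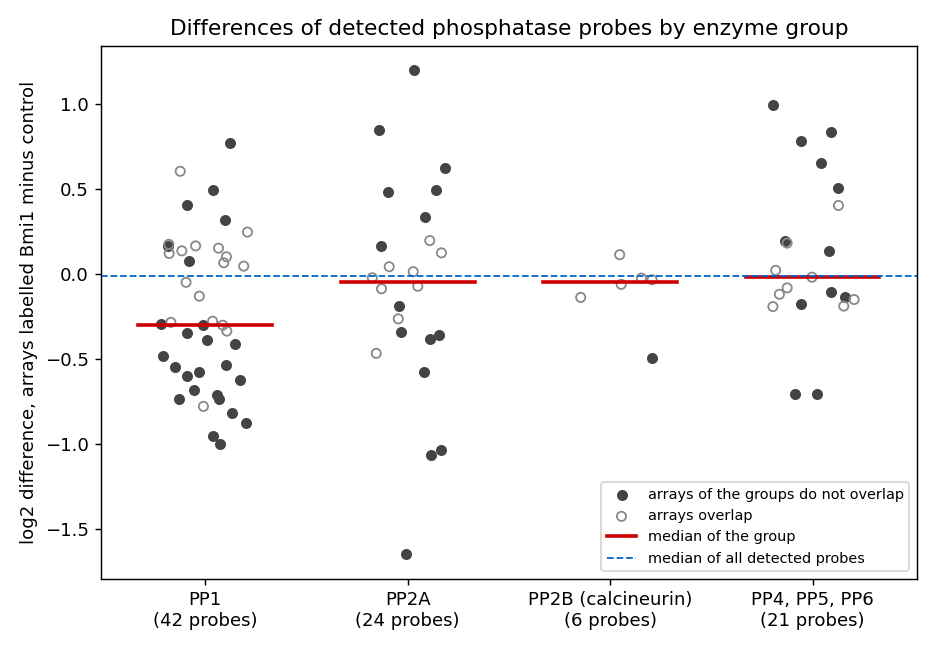
Each point is 1 detected phosphatase probe, placed by its log2 difference between the arrays labelled Bmi1 and those labelled control and grouped by enzyme. Filled points are probes whose groups do not overlap, red bars are group medians and the dashed line is the median of all detected probes. The PP1 median lies at -0.30, and the PP2B points lie between -0.50 and 0.12.

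PP1 has 3 catalytic genes, and their probes did not lie on one side. Ppp1ca, which encodes the alpha isoform, had 4 detected probes. The probe of lowest p read 11.49 and 11.67 in the controls and 11.23 and 10.86 on the Bmi1 arrays, with a difference of -0.53 (SE 0.22, limma adjusted p = 0.229). Without the second Bmi1 array this became smaller by over 1.5 times, at -0.35. A pair of further probes gave -0.48 and -0.41 without overlap, or -0.24 and -0.18 without that array, and the fourth gave 0.17, or -0.16 when arrays were scaled to the median of all probes, detected or not. Of these 4 Ppp1ca probes 3 were therefore lower on both arrays labelled Bmi1, and 1 was not. Ppp1cb, the beta isoform that acts in myosin phosphatase, had differences of 0.41 and 0.25, of which the second turned to -0.06 under that scaling. Ppp1cc, the gamma isoform, had 0.14 and 0.12, and both turned below 0 there. The 95% intervals of these Ppp1cb and Ppp1cc differences spanned 0, at their widest from -0.52 to 0.76 for Ppp1cc.

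**Figure D2:**
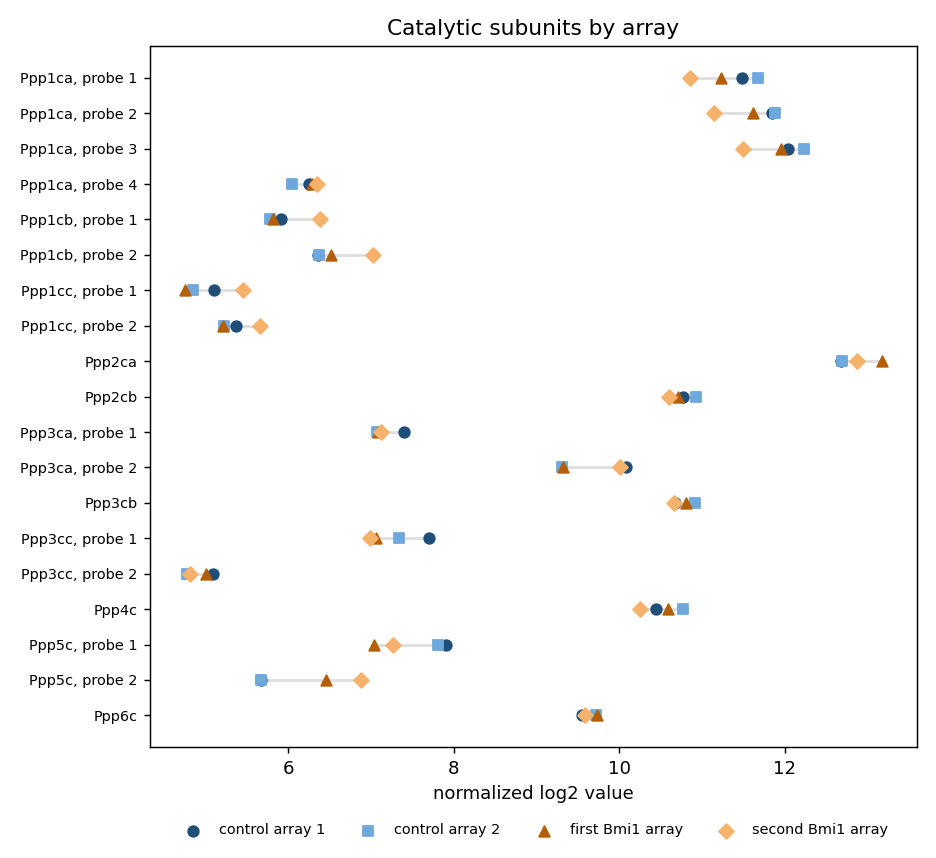
Normalized log2 values of the catalytic subunits on each array, 1 row per probe, with the probes of a gene in order of their difference and a symbol for each array. Ppp2ca lies between 12.68 and 13.17, and the rows of the PP2B genes show arrays of both groups interleaved for all but 1 Ppp3cc probe.

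Of the 34 detected probes of PP1 regulatory subunits, for 29 genes, 23 had a difference below 0 and the median was -0.30. The groups did not overlap for 16 on the lower side and 4 on the higher side, and an unadjusted p under 0.05 was reached by 10 lower and 2 higher probes. Over all detected probes 27.3% lay lower and 26.3% higher without overlap, and 10.1% and 10.7% reached that p. Within the arrays labelled Bmi1, the second tended to lie further out. Over all phosphatase probes it was below the first for 24 of the 33 lower probes without overlap. It was above the first for 15 of the 20 higher ones. The same count over all detected probes was not made, so this is not read as a trait of the phosphatase probes.

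Among PP1 inhibitors, Ppp1r11, also called inhibitor-3, read 10.92 and 10.68 in the controls and 10.08 and 9.53 on the Bmi1 arrays. Both Bmi1 arrays lay below both controls, with a mean of 9.80 against 10.80 (SE of the difference 0.25, adjusted p = 0.142). Its second probe had a difference of -0.71 and also no overlap. Ppp1r8, the nuclear inhibitor NIPP1 that takes part in splicing and transcription, read 8.89 and 9.03 against 8.46 and 7.99, a difference of -0.73 (SE 0.23, adjusted p = 0.161). Ppp1r14b and Ppp1r14c, inhibitors that work when phosphorylated by protein kinase C, had -0.54 and -0.29 without overlap. The first was -0.27 without the second Bmi1 array and the second was -0.19 without the second control array. Ppp1r1a, inhibitor-1, and Ppp1r2, inhibitor-2, had 0.15 and 0.05 with overlapping groups. Ppp1r1b, the dopamine-regulated inhibitor DARPP-32 of the striatum, read 4.65 and 5.28 in the controls and 5.89 and 5.24 on the Bmi1 arrays, where the second Bmi1 array fell within the controls. The promoter of Ppp1r11 is printed because both of its probes lay lower without overlap. It is the RefSeq window from 250 bases before to 50 bases after the start of the gene, at chr17:36951743-36952042 on the minus strand of GRCm38.p6. Capitals mark letters that match, on either strand, the GC box (GGGCGG), the CCAAT box (CCAAT), the TATA box (TATAAA), the E-box (CACGTG), the cAMP response element (TGACGTCA) or the motifs of ETS (CCGGAAGT) and E2F (TTTCCCGC), or the palindromic NRF1 motif or the YY1 motif. Overlapping matches run together. Here the only match was a CCAAT box.
Ppp1r11: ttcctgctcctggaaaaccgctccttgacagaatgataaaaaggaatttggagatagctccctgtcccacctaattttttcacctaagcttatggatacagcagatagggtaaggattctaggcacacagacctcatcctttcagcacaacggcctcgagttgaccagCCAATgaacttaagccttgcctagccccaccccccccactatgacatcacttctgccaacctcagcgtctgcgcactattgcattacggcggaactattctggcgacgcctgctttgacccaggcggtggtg

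Ppp1r35, a centrosomal protein needed for centriole elongation in human cells, read 9.30 and 9.26 in the controls and 8.57 and 8.35 on the Bmi1 arrays, with a difference of -0.82 (SE 0.20, adjusted p = 0.142). Its second probe gave -0.62, and neither probe showed overlap. Ppp1r9b, the spine protein spinophilin that binds actin, read 8.65 and 8.43 against 7.97 and 7.35, a difference of -0.88 (SE 0.26, adjusted p = 0.153) that was -0.57 without the second Bmi1 array. Ppp1r9a, its relative neurabin, had probes at 0.50 and -0.35, each without overlap, so its direction depends on the probe. Ppp1r18, the actin-binding phostensin, had 0.17 with overlapping groups, so that the 4 probes of the actin and synapse targeting genes split evenly around 0. The promoter of Ppp1r35, at chr5:137778654-137778953 on the plus strand, holds 2 GC boxes and a CCAAT box.
Ppp1r35: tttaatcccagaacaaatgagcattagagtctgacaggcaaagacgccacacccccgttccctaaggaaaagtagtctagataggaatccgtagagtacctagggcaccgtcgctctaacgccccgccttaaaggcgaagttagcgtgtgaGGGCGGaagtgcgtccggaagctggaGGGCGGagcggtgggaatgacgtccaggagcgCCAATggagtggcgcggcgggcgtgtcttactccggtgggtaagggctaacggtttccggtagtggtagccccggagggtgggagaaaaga

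Ppp1r15a, the stress-induced GADD34 that brings PP1 to the translation factor eIF2alpha, read 6.90 and 7.02 on the control arrays against 6.43 and 6.13, a difference of -0.68 (SE 0.21, adjusted p = 0.159). Its constitutive relative Ppp1r15b overlapped between groups, with a difference of 0.07. Ppp1r13b, the p53 partner ASPP1 that favours apoptosis, read 6.39 and 5.99 against 5.36 and 5.56, a difference of -0.73 (SE 0.22). Ppp1r13l, the inhibitory member iASPP, was not detected on either control array. Its mean level on the Bmi1 arrays was 1.11-fold the detection limit of the control arrays. The Ppp1r13b probe thus lay lower without overlap. The Ppp1r13l probe met the detection rule only through the arrays labelled Bmi1. Its higher side was favoured by that rule and is not read as a result.

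All 5 detected glycogen-targeting probes had differences below 0, with a median of -0.39, where 49.0% of all probes lay above 0. The groups did not overlap for 3 of them, on the lower side, where 27.3% of all probes lay. An unadjusted p under 0.05 in limma was reached by 1 of the 5, where 10.1% of all probes reached it on that side. Ppp1r3c, which encodes PTG and ties PP1 to glycogen, read 11.30 and 11.11 in the controls and 11.03 and 10.78 on the Bmi1 arrays, a difference of -0.30 (SE 0.21). Ppp1r3f, on the X chromosome, read 6.66 and 6.30 against 6.01 and 5.80, with a difference of -0.57 (SE 0.22, adjusted p = 0.209). The first control array, which held the Xist signal, was the highest of the 4 for Ppp1r3f, and the part of that array's X-linked expression in the result was not tested. Ppp1r3d had -0.39 without overlap, and Ppp1r3g and Ppp1r3e had -0.78 and -0.28 with overlap.

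Subunits of myosin phosphatase did not share a direction. Ppp1r12a, the myosin-targeting subunit MYPT1, had a probe at 7.21 and 7.38 in the controls and 7.92 and 8.22 on the Bmi1 arrays, a difference of 0.77 (SE 0.21, adjusted p = 0.145). A second Ppp1r12a probe gave -0.05, or 0.01 when arrays were scaled to the median of detected probes. Ppp1r16a, the membrane-bound MYPT3, read 6.56 and 6.78 against 6.12 and 5.31, a difference of -0.95 (SE 0.29) that was -0.55 without the second Bmi1 array. Ppp1r12b, Ppp1r12c and both probes of Ppp1r16b overlapped between groups.

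**Figure D3:**
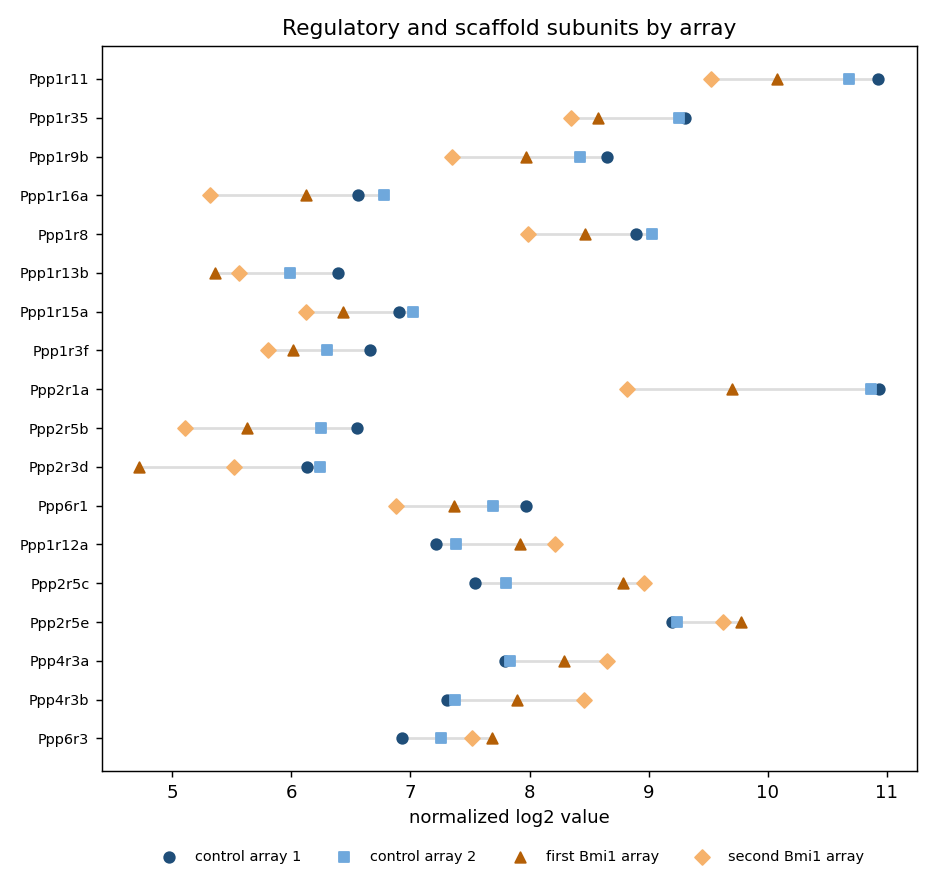
Normalized log2 values on each array for 18 regulatory and scaffold genes whose groups do not overlap, each shown by its probe of lowest p. The upper 12 rows are lower and the lower 6 rows are higher on the arrays labelled Bmi1, and the widest gap is that of Ppp2r1a, from 10.94 down to 8.82.

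PP2A held the lowest and the highest difference of the 93 probes, while those of its catalytic genes were small. Ppp2ca, the main catalytic subunit, read 12.68 and 12.69 in the controls and 13.17 and 12.88 on the Bmi1 arrays, a difference of 0.34 (SE 0.21, adjusted p = 0.393). Ppp2cb, the second catalytic gene, read 10.77 and 10.92 against 10.71 and 10.60, a difference of -0.19 (SE 0.20). The 2 catalytic genes thus lay on opposite sides, each without overlap. With arrays scaled to the median of detected probes Ppp2cb was at -0.02 and Ppp2ca at 0.54. With arrays scaled to the median of all probes they were at -0.37 and 0.19. The Ppp2cb difference is within the shifts between scalings, so its side is not settled. Ppp2r1a, the scaffold alpha that holds catalytic and B subunits together, read 10.94 and 10.87 in the controls and 9.70 and 8.82 on the Bmi1 arrays. Its difference was -1.65 (SE 0.30, adjusted p = 0.142), a 3.14-fold lower level, with a spread of 0.88 between the Bmi1 arrays and 0.07 between the controls. Leaving out the first Bmi1 array gave -2.09, from a fit with 1 array in that group. Leaving out the second gave -1.21. The gene has 1 probe on this array. Ppp2r1b, the scaffold beta, had 1 detected probe of 4, at 0.04, or -0.28 with arrays scaled to the median of all probes, and its 95% interval ran from -0.48 to 0.57.

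The promoters of Ppp2r1a and of Ppp2r5c, the PP2A genes with the lowest and the highest difference, are printed for comparison. They lie at chr17:20945204-20945503 and chr12:110447272-110447571, both on the plus strand. Ppp2r1a has 3 GC boxes, a CCAAT box and an ETS match, and Ppp2r5c has 5 GC boxes and no other match.
Ppp2r1a: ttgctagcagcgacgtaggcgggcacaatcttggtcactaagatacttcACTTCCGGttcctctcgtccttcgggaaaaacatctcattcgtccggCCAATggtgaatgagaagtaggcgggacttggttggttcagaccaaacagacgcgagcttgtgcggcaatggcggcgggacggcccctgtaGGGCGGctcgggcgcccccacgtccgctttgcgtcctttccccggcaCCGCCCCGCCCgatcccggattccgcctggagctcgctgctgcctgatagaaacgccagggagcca
Ppp2r5c: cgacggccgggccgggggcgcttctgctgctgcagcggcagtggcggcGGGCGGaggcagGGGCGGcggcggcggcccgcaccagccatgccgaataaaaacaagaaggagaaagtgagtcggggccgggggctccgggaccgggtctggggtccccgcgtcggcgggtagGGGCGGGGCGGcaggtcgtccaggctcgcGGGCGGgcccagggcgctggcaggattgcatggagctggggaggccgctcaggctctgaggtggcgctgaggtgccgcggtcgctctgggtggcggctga

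The B56 subunits, which direct PP2A to centromeres and to growth signalling proteins, split by gene and by probe. Of 12 probes for 4 genes, 6 were higher and 3 lower without overlap, where 26.3% and 27.3% of all probes were. Ppp2r5c, B56 gamma, had a probe at 7.54 and 7.80 in the controls and 8.78 and 8.96 on the Bmi1 arrays, a difference of 1.20 (SE 0.21, adjusted p = 0.142) and a 2.30-fold higher level. Its second probe gave 0.63 without overlap, and a further probe, at 4.47 to 4.82 close to the lowest detected values, gave -0.09, or 0.23 with arrays scaled to the median of detected probes. Ppp2r5b, B56 beta, read 6.55 and 6.25 against 5.63 and 5.11, a difference of -1.03 (SE 0.25, adjusted p = 0.142). Ppp2r5e, B56 epsilon, had 0.50 and 0.48 on its 2 probes, both without overlap. Ppp2r5d, B56 delta, had 6 detected probes, of which 2 were higher and 2 lower without overlap and 2 overlapped. They ran from -0.47 to 0.85, and the probe at 0.85 gave 0.56 without the second Bmi1 array.

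The other B subunits gave smaller or lower values. The 5 probes of the B55 genes, whose products with PP2A oppose cyclin-dependent kinase at mitotic exit, had differences of -0.34 to 0.13. Only Ppp2r2d, B55 delta, showed no overlap, at 9.29 and 9.52 in the controls and 9.07 on both Bmi1 arrays. Ppp2r3d, a calcium-binding B subunit of mouse, had probes at -1.06 (SE 0.28, adjusted p = 0.142) and -0.57, both without overlap. The first read 6.13 and 6.24 against 4.72 and 5.52, and gave -0.66 without the first Bmi1 array. Ppp2r3c had 0.20 with overlapping groups, and Ppp2r3a was not detected.

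Calcineurin showed the smallest differences of the enzyme groups by the median size of a difference, 0.09 against 0.37 for PP1, 0.35 for PP2A and 0.19 for PP4 to PP6. Its catalytic genes Ppp3ca and Ppp3cb had differences of -0.14 and -0.03 for Ppp3ca and -0.06 for Ppp3cb, with overlapping groups. The probe at -0.03 read 10.08 and 9.30 in the controls and 9.32 and 10.00 on the Bmi1 arrays, so its arrays differed within each group by more than the groups did. The Ppp3cb probe read 10.67 and 10.92 against 10.81 and 10.66, with a 95% interval of the difference from -0.54 to 0.42. Ppp3cc, the gamma isoform, had a probe at 7.70 and 7.34 against 7.06 and 6.98, a difference of -0.50 (SE 0.21, adjusted p = 0.244) that was -0.32 without the first control array. Its other probe gave -0.02. Under scaling to the median of detected probes 1 probe each of Ppp3ca, Ppp3cb and Ppp3cc turned above 0. Ppp3r1, the calcium-binding regulatory subunit, had 0.12 with a 95% interval from -0.38 to 0.61, and no calcineurin probe stood above 0 under scaling to the median of all probes. The testis subunit Ppp3r2 was not detected.

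Among the remaining enzymes, the catalytic subunits Ppp4c and Ppp6c had differences of -0.19 and 0.02 with overlapping groups, and the latter turned to -0.22 with arrays scaled to the median of all probes. The catalytic gene Ppp5c, whose protein binds the chaperone Hsp90, gave opposite answers on its 2 probes. One read 7.91 and 7.81 in the controls and 7.04 and 7.27 on the Bmi1 arrays, a difference of -0.70 (SE 0.20, adjusted p = 0.148). The other read 5.67 and 5.68 against 6.46 and 6.88, a difference of 0.99 (SE 0.22, adjusted p = 0.142). Neither overlapped, so no direction can be given for the gene.

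The PP4 subunits known as SMEK lay higher on every detected probe. Ppp4r3a, whose product brings PP4 to its targets and promotes neuronal differentiation of neural progenitors in mouse, read 7.79 and 7.83 in the controls and 8.29 and 8.65 on the Bmi1 arrays, a difference of 0.66 (SE 0.21, adjusted p = 0.167). Ppp4r3b, its close relative, had 0.84 (SE 0.24, adjusted p = 0.150) and 0.78 on its 2 probes, without overlap. The first Ppp4r3b probe read 7.31 and 7.38 against 7.90 and 8.46 and gave 0.56 without the second Bmi1 array. Of the 3 Ppp4r1 probes, 1 was lower and 1 higher without overlap, between -0.18 and 0.14. The PP6 subunits split: Ppp6r1 read 7.97 and 7.70 against 7.37 and 6.88, a difference of -0.71 (SE 0.24) that was -0.46 without the second Bmi1 array. Ppp6r3 gave 0.51, 0.40 and 0.18 on its 3 probes, of which the first showed no overlap, and the 3 probes of Ppp6r2 overlapped. The promoter of Ppp4r3b, printed because both probes lay higher without overlap, is at chr11:29172726-29173025 on the plus strand and holds a GC box and an ETS match.
Ppp4r3b: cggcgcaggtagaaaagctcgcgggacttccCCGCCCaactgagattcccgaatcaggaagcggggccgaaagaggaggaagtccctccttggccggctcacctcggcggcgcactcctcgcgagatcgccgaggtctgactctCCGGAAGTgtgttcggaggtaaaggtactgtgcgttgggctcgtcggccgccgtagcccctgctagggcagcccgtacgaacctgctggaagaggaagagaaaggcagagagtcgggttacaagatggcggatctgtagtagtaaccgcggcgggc

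Genes with several probes show how far a single probe can be read. Of the 61 genes, 39 had 1 detected probe and 22 had 2 or more, and 10 of these 22 had probes of opposite sign. In 6 of them, Ppp5c, Ppp2r5d, Ppp1r9a, Ppp1ca, Ppp4r1 and Ppp4r4, probes lay without overlap in both directions. The Ppp4r4 probes read 4.48 to 4.82, close to the lowest detected values, and the lower one was detected only on the control arrays. Its lower side was favoured by the detection rule, so Ppp4r4 is not read as a gene whose probes disagree. The higher Ppp4r1 probe turned to -0.07 with arrays scaled to the median of all probes. The same counts over all genes with several probes were not made. Which transcripts each probe reads was not analysed here. Leaving out 1 array turned the sign for 30 of the 93 probes. Of the 53 probes without overlap, whose sign cannot turn in this way, 28 moved by over 1.5 times without one of the arrays, 17 of them without the second Bmi1 array.

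**Figure D4:**
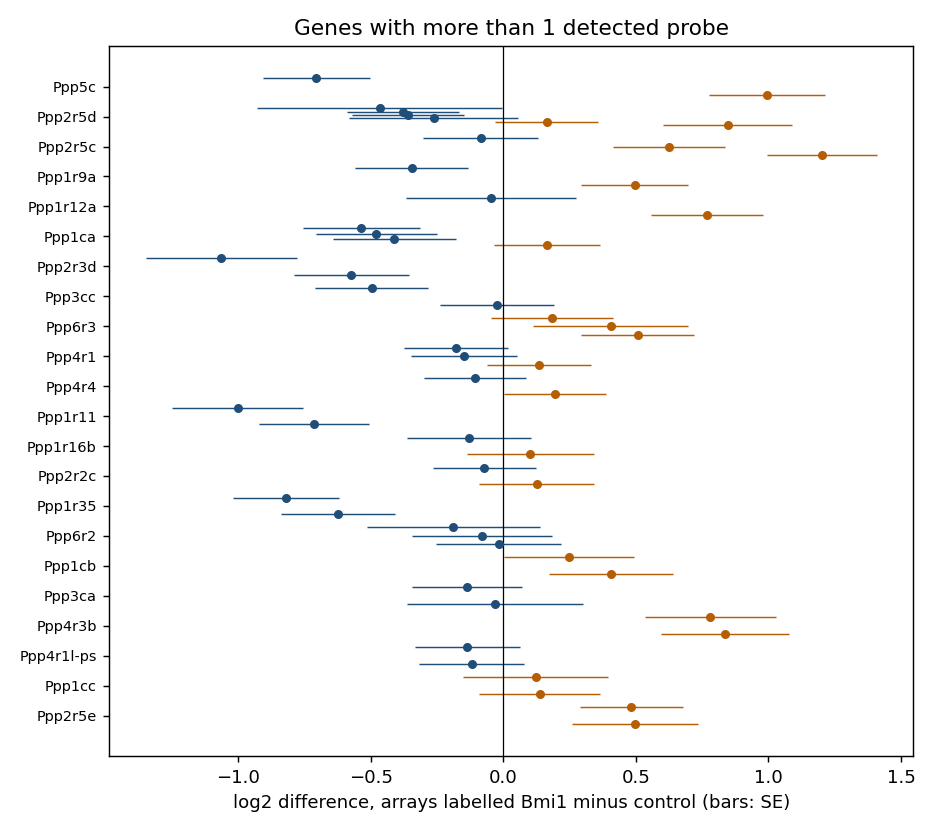
Log2 differences of every probe for the 22 phosphatase genes with more than 1 detected probe, with bars of 1 SE, and with blue below 0 and orange above 0. Ppp5c has probes at -0.70 and 0.99, while both probes of Ppp1r11, Ppp1r35 and Ppp4r3b lie on one side.

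Of the 75 genes 14 had no detected probe, with signals of -10.6 to 11 on the 4 arrays. They included Ppp3r2, the glycogen-targeting Ppp1r3a and Ppp1r3b, and Ppp1r7, Ppp1r27, Ppp1r36, Ppp1r42 and Ppp4r2. Just inside the detection rule, by the second-smallest detection p, stood probes of Ppp4r1l-ps at 0.036 and of Ppp2r2c and Ppp1r14a at 0.049 each. Just outside stood Ppp1r3a at 0.051, a Ppp2r1b probe at 0.064 and Ppp1r32 at 0.078. The array floor, the lowest value of a detected probe, was 4.57 to 4.71 in log2 units.

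Among other genes of these pathways, each counted by 1 probe, 0 passed the adjusted threshold in any list. Of 23 detected PP1 partners outside the Ppp symbols, 7 were higher and 2 lower at an unadjusted p under 0.05. The shares over all detected probes, with 1 probe a gene, were 12.2% and 9.76%. The median of the PP1 partners was 0.00. The higher ones included Cdca2, which brings PP1 to anaphase chromatin, at 1.46, with 0.69 on its other probe. The mitotic kinesin Kif18a had 1.37, with 0.56 on its other probe and 0.87 for the first without the second Bmi1 array. The lower ones included Elfn2, a PP1-binding membrane protein, at -1.45. Of 22 detected PP2A regulators and partners 4 were higher and 1 lower, with a median of 0.27. Lcmt1, which methylates the PP2A catalytic subunit, had 0.56 on its brightest probe but -0.44 and -0.47 on the others, and Ppme1, which removes that methyl group, had 0.52. Strn4, a striatin that acts as a B subunit, had -0.98, or -0.45 without the second Bmi1 array.

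Calcineurin regulators and targets gave 3 higher and 1 lower of 17 detected, again beside 12.2% and 9.76% over all with 1 probe a gene. Nfatc3, a transcription factor that calcineurin sends to the nucleus, had 0.86 on its brightest probe and -0.21 to 0.19 on 3 others. Calm2, a calmodulin gene, had 0.73 on its brightest probe and 0.10 and 0.55 on the others. Crtc1, a CREB coactivator that calcineurin dephosphorylates, had -0.81, or -0.45 without the second Bmi1 array. Of 7 detected partners of PP4 to PP6, 2 were the Ppp4r3a and Ppp4r3b genes above, listed by older symbols, and the chaperone Hsp90aa1 had 0.79 on its brightest probe and -0.26 on the other. Of 23 detected phosphatases of the unrelated PPM family and its like, 2 were higher and 1 lower, led by Ppm1m at 1.01 on its brightest probe, with -0.05 and -0.02 on the others, and Ppm1g, a nuclear phosphatase active in splicing, at -1.09. Ppm1g read 9.17 and 9.28 in the controls and 8.19 and 8.07 on the Bmi1 arrays.

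The array medians place the phosphatase groups beside the mitotic and glial genes. Taken as deviations from the mean of the 4 arrays, the PP1 median was 0.18 and 0.04 on the first and second control array against -0.08 and -0.18 on the first and second Bmi1 array. The mitotic median was -0.92 and -0.07 against 0.24 and 0.77. That of the oligodendrocyte markers was 0.67 and 0.09 against -0.19 and -0.77, so the first control and the second Bmi1 array were the extremes of all 3 sets. Astrocyte markers read 0.54 and 0.30 against -0.38 and -0.22. PP2B read 0.20 and -0.02 against -0.02 and -0.09, with the first control array highest, as for PP1. PP2A stayed within -0.05 to 0.08 and PP4 to PP6 within -0.02 to 0.06. The summed signal of the 9 astrocyte markers was 17335 and 17778 in the controls and 10157 and 8650 on the Bmi1 arrays, and that of the 11 oligodendrocyte markers was 38093 and 24399 against 22557 and 17118. The part of glial content, cell division and array depth in the phosphatase values was not tested.

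**Figure D5:**
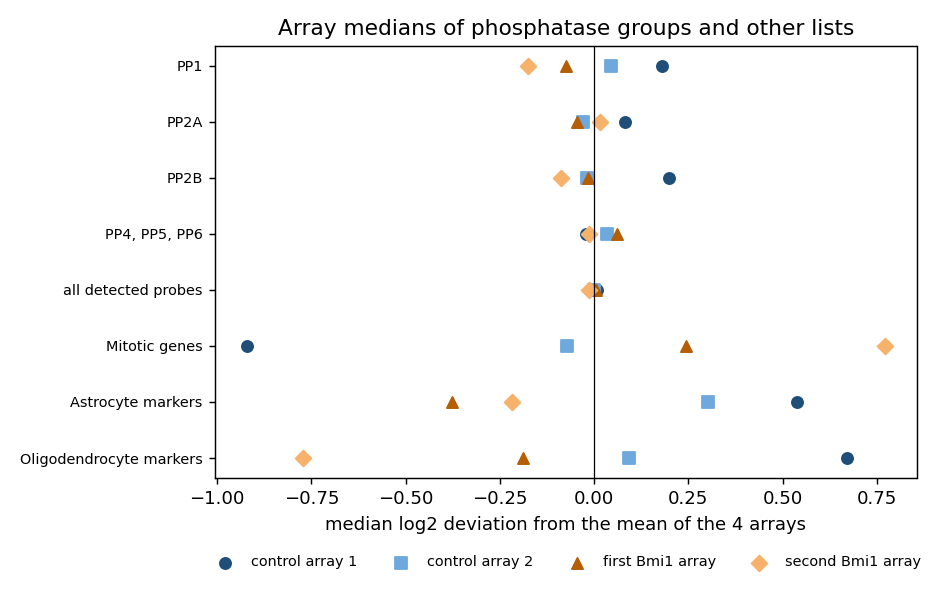
Median log2 deviation from the mean of the 4 arrays, for each phosphatase group, all detected probes, mitotic genes and glial markers, with a symbol for each array. PP1 runs from 0.18 on the first control array to -0.18 on the second Bmi1 array, a narrower range than that of the mitotic genes, from -0.92 to 0.77.

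Markers of other cell types were sparse. Microglial markers were detected for 2 of 8 genes, with a summed signal of 10.3 to 26.1, endothelial and mural markers for 1 of 9 and mesenchymal markers for 1 of 6. Cx3cr1, Tmem119, Pecam1, Cdh5 and Col1a1 were not detected. Neuron markers were detected for 8 of 15, with Tubb3, Snap25 and Stmn2 not detected. Of these 8 markers 4 had a difference above 0 and 4 below, with a median of -0.01. Their summed signal, in which bright genes weigh most, was 4263 and 4220 in the controls and 3394 and 2062 on the Bmi1 arrays.

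The promoters of the detected phosphatase genes were rich in CpG. A RefSeq window was at hand for 47 of the detected genes, and 36 of these, 76.6%, held a GC box on either strand. The share was 46.3% over 17492 protein-coding promoters of the same length, and 3 of 11 undetected phosphatase genes held one. The median ratio of observed to expected CpG was 0.904 in the detected genes, 0.576 over all coding genes and 0.469 in the undetected ones. A TATA box was present in 6.38% against 13.3%, a CCAAT box in 16 of 47 against 39.0% and an E-box in 6.38% against 7.90%. The cAMP response element was found in 8.51% against 2.34%, the ETS motif in 8.51% against 5.29%, NRF1 in 4.26% against 1.32%, E2F in 2.13% against 1.46% and YY1 in 0 of 47 against 0.972%. With 1 window per gene counted, YY1 matches in a further window of Ppp1r12b and of Ppp1r8 were left out. The comparison set held coding genes whether detected here or not. The shares are therefore not read as a trait of phosphatase genes. These are letter matches and were tested for no difference.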

How the data were processed

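RNA from 4 neurosphere cultures was measured on Illumina bead arrays, with 1 array each, in 2 groups of 2 biological replicates. Per the file headers, the deposited scanner table lists an intensity and a detection value per probe and array. The deposited intensity values were background-subtracted, since 31.2 to 33.9% lay at or below 0 on each array. The deposited detection column rose with signal and was read as 1 minus the detection p-value. The deposited processed table holds quantile-normalized values on a log2-like scale, and lumi was used per the submitters' processing notes, with no version given. Both columns headed as Bmi1 arrays carry the same name in the scanner table, so they are called first and second by their place.

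Of the rows, 22 without an identifier were dropped, and 45259 probes went through neqc (limma 3.58.1, R 4.3.3; normexp from detection p, offset 16, log2, quantile). The 18237 probes with a detection p under 0.05 on at least 2 arrays were fitted with lmFit and eBayes, two-sided, with Benjamini-Hochberg adjustment over these 18237 probes at 0.05. The total degrees of freedom were 7.29. Probes were named by the symbol of the platform annotation, which gives 34872 probes 1 symbol. Tables were made with Python 3.11.15 and pandas 2.3.3 and figures with matplotlib 3.10.9. The fit was tested on simulated data.

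The members, gene lists, tests and alternatives were chosen with earlier results of these data known. Genes named are all catalytic and scaffold subunits, the lowest p in each direction without overlap (up to 8 for PP1, 5 for PP2A, 3 each for PP2B and the rest), the 5 brightest probes, genes with discordant probes, probes at the detection border, up to 3 per direction from each list, and Bmi1. Other members are named with values where they complete a role. Each listed gene outside the members stands as its brightest detected probe. Sequences are from RefSeq on GRCm38.p6, 1 window per gene, and no sequence is printed for Ppp2r2b. Scanner columns of the Bmi1 arrays carry no replicate number, so pairing was checked in the processed table. Same-numbered columns deviated in opposite ways (r = -0.20), so no block was used. No slide or scan date is given in the files and no batch could be tested. The number of arrays limits the precision.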

Additional observations from a re-analysis of the deposited data

How the results depend on the processing

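At an unadjusted p under 0.05 the main counts were 11 higher and 17 lower phosphatase probes, 0 past the adjusted threshold, and medians of -0.09 over all, -0.30 for PP1, -0.05 for PP2A, -0.05 for PP2B and -0.02 for PP4 to PP6. The processed values, with groups as their columns name them, gave 19 higher and 10 lower, where 10.2% and 10.7% of all probes were. Their medians were 0.056 over all, 0.18 for PP1 and 0.030 for PP2A, and all 65 named probes took the opposite sign. The replicate number as a block in that table gave 19 higher and 9 lower, where 8.88% and 9.73% of all probes were. The medians of 0.056, 0.18 and 0.030 were the same. A crossed block, chosen after seeing the data, gave 24 higher and 12 lower, where 11.9% and 12.1% of all probes were. Scaling to the median of detected probes gave medians of 0.028 over all, -0.11 for PP1, 0.050 for PP2A, 0.10 for PP2B and 0.20 for PP4 to PP6, with 2939 higher and 1285 lower among all probes, against 1958 and 1835 in the main fit. Scaling to the median of all probes, also added after seeing the data, moved the median of all detected probes to -0.21, gave 615 higher and 3670 lower among them, and gave 3 higher and 26 lower phosphatase probes with medians of -0.32, -0.47, -0.30, -0.25 and -0.16 in the same order. Each of these scalings turned the sign of 8 of the 65 named probes. Without background correction the medians were -0.052 over all and -0.17 for PP1, and without the filter on dim probes they were -0.024 and -0.026. With 1 probe a gene, 4 of 61 were higher and 13 lower, where 12.2% and 9.76% of all probes so chosen were.

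Leaving out 1 array at a time gave 4 to 11 higher and 8 to 20 lower probes, with 4 and 8 without the first control array and 10 lower without the second Bmi1 array. It gave 0 to 1 past the adjusted threshold, the 1 being Ppp2r1a without the first Bmi1 array. Medians ran from -0.12 to -0.024 over all, -0.35 to -0.16 for PP1, -0.11 to 0.086 for PP2A, -0.24 to 0.013 for PP2B and -0.053 to 0.053 for PP4 to PP6. The lone array of a group was then assumed to vary like the other group. The shares of all detected probes at an unadjusted p under 0.05 moved as well. They were lowest in both directions without the first control array and highest without the first Bmi1 array. The range of the counts is therefore not read as a trait of the phosphatase probes. Between 3 and 7 of the 65 named probes turned sign. No cause of these shifts was tested. With 2 arrays a group, signal near background limits the dim probes, and a difference that missed the threshold is not shown to be absent.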
